A study of Arabidopsis thaliana with 77 samples.

Results

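The calls described here are single-base changes from C to T or from G to A that were listed for 1 line only, on the arms of Arabidopsis chromosomes 2 and 4. They come from whole-genome sequencing of 4 episuppressor lines, named 2-69, 2-20, 3-72 and 3-75, and they were selected on measured values. A call had to be absent from the other 4 variant lists, to have a caller quality score (phred-scaled) of at least 50 and a total read depth of at least 10, and to lie more than 3 Mb from the nominal centromere centre, taken as 3.6 Mb on chromosome 2 and 4 Mb on chromosome 4. This left 426 calls, of 2400 line-specific calls of the same class on chromosomes 1 to 5 and of 15725 distinct calls of any kind in the 5 libraries. There were 125 such calls for 2-69, 97 for 2-20, 121 for 3-72 and 83 for 3-75.

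The series holds 77 samples, of which 5 are used here, each a library of genomic DNA from rosette leaves of 4-week-old plants of the Columbia ecotype. The 4 lines have the labelled genotype rdr1 rdr2 rdr6 ddm1, and the fifth library is labelled rdr1 rdr2 rdr6, so the 3 rdr alleles are shared by all. RDR1, RDR2 and RDR6 are RNA-dependent RNA polymerases that make double-stranded RNA for silencing, and DDM1 is a chromatin remodeller needed to keep methylation on transposons. As a check of the labels, the RDR6 change R269* (position counted in residues) was homozygous in all 5 libraries. The DDM1 change C615Y was homozygous in the 4 lines, with 23, 14, 10 and 7 alternative reads and no reference read, and heterozygous in the library labelled rdr1 rdr2 rdr6, with 9 of 19 high-quality reads. Each line is 1 library, so a value describes that library. Intervals are Wilson 95% intervals and cover counting error only, and neighbouring calls are not independent.

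Chemical mutagens that alkylate guanine, such as ethyl methanesulfonate, leave mainly G/C to A/T changes. Where the altered G lay on the reference strand the change is read as G to A, and where it lay on the other strand it is read as C to T. The labels used here name no mutagen. In a selfed plant, a new change on 1 chromosome copy becomes homozygous or is lost over generations, and linked changes stay together until a crossover separates them. Runs of calls with the same zygosity therefore can be read along an arm as blocks, and the calls on either side of a switch bound a breakpoint.

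The reference sequence around a few of the calls is given first, because these calls carry the results on coding changes and on breakpoints. Sequences are from the reference assembly of TAIR10, 61 bases long and written 5′ to 3′. Capitals mark the codon that was changed, or the changed base where it lies in a splice site or beside a breakpoint. AT2G29210, which encodes a protein with the PWI domain of splicing factors, is shown because 3 lines each changed another codon of it. The 3 windows, on the plus strand, are chr2:12559320-12559380 for 2-20, chr2:12559713-12559773 for 3-72 and chr2:12560527-12560587 for 3-75.
AT2G29210 R179H in 2-20: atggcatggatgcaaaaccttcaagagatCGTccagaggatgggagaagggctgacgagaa
AT2G29210 R204C in 3-72: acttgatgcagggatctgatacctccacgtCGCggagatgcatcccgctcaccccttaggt
AT2G29210 P404S in 3-75: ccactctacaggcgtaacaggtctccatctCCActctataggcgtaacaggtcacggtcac

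The 5 homozygous calls that gained a stop codon or changed a splice site are shown because no reference read was listed at any of them. Their windows are chr2:11796561-11796621 (minus strand), chr2:7931807-7931867 (plus strand), chr4:16757936-16757996 (minus strand), chr4:17418010-17418070 (plus strand) and chr4:18186714-18186774 (plus strand), in the order printed.
AT2G27650 W251* in 2-69: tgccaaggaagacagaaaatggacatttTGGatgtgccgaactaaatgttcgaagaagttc
AT2G18220 R761* in 3-75: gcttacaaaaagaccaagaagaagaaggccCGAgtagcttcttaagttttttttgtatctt
BSK1 Q26* in 3-75: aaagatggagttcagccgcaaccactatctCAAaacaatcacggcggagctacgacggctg
NAPRT1 splice donor in 3-75: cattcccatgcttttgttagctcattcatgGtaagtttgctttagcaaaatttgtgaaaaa
EDS5 splice acceptor in 3-75: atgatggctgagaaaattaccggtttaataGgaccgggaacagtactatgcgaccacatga

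The pair of calls that bounds the narrowest breakpoint, in 3-72, lies at the centres of chr2:13839903-13839963 and chr2:13869245-13869305 on the plus strand.
Last homozygous call in 3-72: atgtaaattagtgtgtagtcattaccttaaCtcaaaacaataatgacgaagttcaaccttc
First heterozygous call in 3-72: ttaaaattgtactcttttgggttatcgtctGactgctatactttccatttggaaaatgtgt

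The stretches searched were positions 1 to 599999 and 6600001 to 19698289 of chromosome 2, and 1 to 999999 and 7000001 to 18585056 of chromosome 4. They add up to 26.3 Mb, or 22.1% of chromosomes 1 to 5. The lines had 106.5 ± 20.0 calls (SD, n = 4), which is 4.76 calls per Mb in 2-69, 3.69 in 2-20, 4.60 in 3-72 and 3.16 in 3-75. The library labelled rdr1 rdr2 rdr6 had 1 call of the same class to itself on these stretches. Median read depth over these calls was 29 for 2-69, 21 for 2-20, 17 for 3-75 and 15 for 3-72, the lowest.

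The quality limit was crossed by heterozygous calls alone among the calls closest to it. None of the 51 calls with a quality between 50 and 60 was homozygous, and none of the 50 calls just below the limit, between 40 and 50, was homozygous. At the depth limit, 33 of the 42 calls with a depth of 10 or 11 were homozygous, as were 22 of the 24 calls just outside it with a depth of 8 or 9. Without either limit the lines had 805 calls on these stretches, and the homozygous share was 76.7% in 2-69, 3.29% in 2-20, 29.7% in 3-72 and 72.1% in 3-75.

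The lines differed in how many of their calls were homozygous. In 2-69, 109 of 125 calls were homozygous (87.2%, interval 80.2 to 92.0). In 3-75 the count was 76 of 83 (91.6%, 83.6 to 95.9). In 3-72 it was 57 of 121 (47.1%, 38.4 to 56.0). In 2-20 it was 4 of 97 (4.12%, 1.62 to 10.1). Thus 2-69 and 3-75 were mostly homozygous on these arms, 3-72 was close to evenly split, and 2-20 was almost wholly heterozygous. The background, the homozygous share of all line-specific calls of the class in the same library, was 53.7% in 2-69, 20.3% in 2-20, 51.2% in 3-72 and 74.0% in 3-75. Against these, 2-69 and 3-75 stood higher on the arms of chromosomes 2 and 4, 3-72 stood near its background and 2-20 stood lower.

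The caller sets zygosity from the reads, so the read counts describe the calls and are no separate check of them. The median share of alternative reads at homozygous calls was 100% in each line, and the lowest share at any of them was 93.1% in 2-69, 84.6% in 2-20, 90.9% in 3-72 and 89.5% in 3-75. At heterozygous calls the median was 49.0% in 2-69, 55.0% in 2-20, 61.1% in 3-72 and 52.9% in 3-75. The ranges of the homozygous and heterozygous calls were apart in 2-69, 3-72 and 3-75 and met at 84.6% in 2-20.

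**Figure D1:**
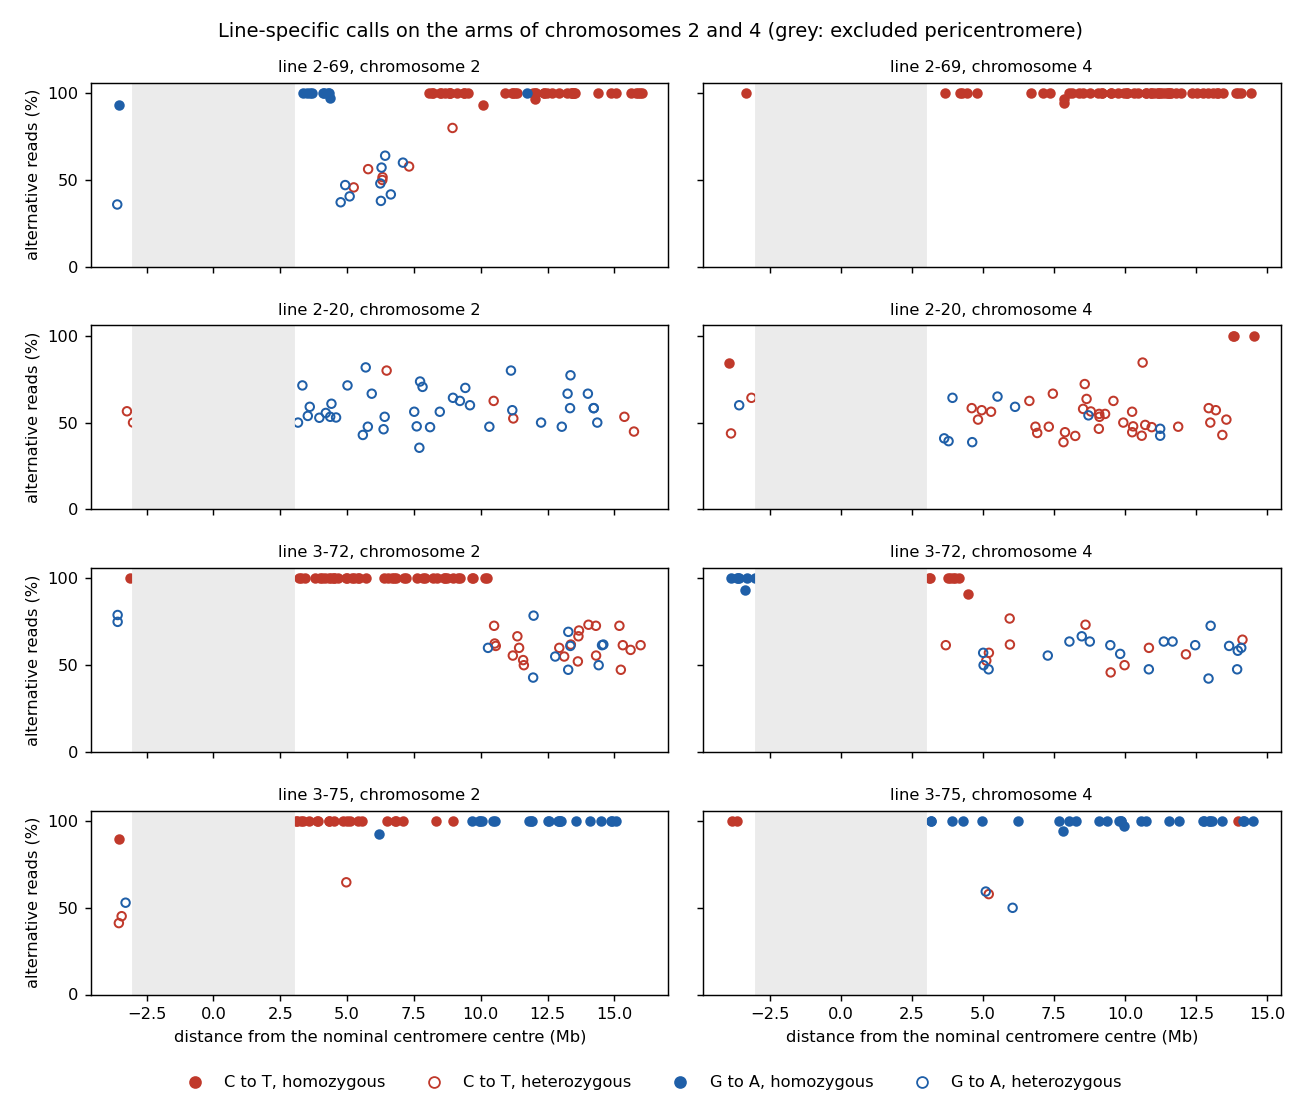
Each point is 1 call. The horizontal axis is the distance from the nominal centromere centre in Mb and the vertical axis the share of high-quality reads with the alternative base in percent, for the 4 lines (rows) on chromosomes 2 and 4 (columns). Filled points are homozygous and open points heterozygous, red is C to T and blue is G to A, and grey is the excluded pericentromere. Chromosome 4 of 2-69 is a single filled red row of 54 long-arm calls, and chromosome 2 of 2-20 is made of open, mostly blue points.

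A block was defined as at least 3 consecutive calls of 1 zygosity on an arm, with blocks of the same zygosity joined over shorter runs. The 4 lines had 17 blocks, 10 homozygous and 7 heterozygous, and 7 breakpoints. Only 20 of the 426 calls lay in runs too short to make a block, and only 2 of those lay inside a block of the other zygosity. Homozygous blocks spanned 19.8 Mb in 2-69, 0.756 Mb in 2-20, 8.59 Mb in 3-72 and 22.1 Mb in 3-75, from first to last call. Heterozygous blocks spanned 2.56 Mb, 23.2 Mb, 14.8 Mb and 0.946 Mb in the same order. Neighbouring calls on a stretch had the same zygosity in 95.6% of 410 pairs, and 18 pairs joined 1 call of each zygosity.

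Line 2-69 had a heterozygous segment between homozygous ones on chromosome 2. Its long arm opened with 9 homozygous calls from 6952717 to 7966002, all G to A. A heterozygous block of 14 calls followed, from 8358537 to 10917403, with 9 G to A and 5 C to T changes. The rest of the arm, from 11657938 to 19635895, held 44 homozygous calls, of which 43 were C to T. The breakpoints were placed within 393 kb and 741 kb. One heterozygous call lay inside this last block, C12541761T, with 16 alternative and 4 reference reads. On chromosome 4 all 54 calls of the long arm, from 7662603 to 18423177, were homozygous and C to T. The longest gap in that row was 1.93 Mb.

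Line 2-20 was heterozygous along nearly all of both long arms. On chromosome 2 all 44 long-arm calls, from 6762633 to 19328653, were heterozygous, 39 of them G to A. On chromosome 4 the 44 calls from 7635144 to 17573106 were heterozygous, and here 35 were C to T. The only breakpoint of this line lay within 226 kb near the end of chromosome 4, where 3 homozygous C to T calls followed from 17798699 to 18554799. Those 3 calls had 10, 9 and 24 alternative reads and no reference read.

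Line 3-72 switched once on each long arm. On chromosome 2 a homozygous block of 41 calls, all C to T, ran from 6783500 to 13839933. A heterozygous block of 32 calls, 22 C to T and 10 G to A, ran from 13869275 to 19576974. The switch was placed within 29.3 kb, the narrowest of the 7 intervals, by the pair of calls printed above. On chromosome 4 a homozygous block of 6 C to T calls ended at 8470653, and 29 heterozygous calls from 9007992 to 18139827 followed, 10 C to T and 19 G to A. The interval between them was 537 kb. Before this homozygous block lay the homozygous calls C7106562T and C7121635T and the heterozygous call C7691436T. At the tip of the short arm of chromosome 4 this line had 7 homozygous calls from 125155 to 974757, all G to A.

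Line 3-75 was homozygous along all of the long arm of chromosome 2 that had calls, from 6672264 to 18674325, with 43 homozygous calls and the single heterozygous call C8568826T inside. On chromosome 4, a heterozygous block of 3 calls from 9098909 to 10044747 lay between homozygous blocks of 5 and 25 calls. The breakpoints on its sides were placed within 128 kb and 193 kb.

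The 7 breakpoints were found again with a quality limit of 30, with a depth limit of 5, and with limits of 20 for quality and 5 for depth together. Of their intervals, 5 were the same to the base under each of these limits. The interval in 3-75 near 9 Mb of chromosome 4 narrowed from 128 kb to 88.4 kb with a depth limit of 5. The interval in 3-72 on chromosome 4 was 707 kb with a quality limit of 30 and 532 kb with both limits lowered. With a depth limit of 20, or with runs of at least 5 calls, 4 breakpoints were left, and the single breakpoint of 2-20 and both of 3-75, which rest on blocks of 3 calls, were lost. At a depth of 20 the breakpoint of 3-72 on chromosome 2 was placed only within 5599 kb, and the one on chromosome 4 within 1183 kb. With a quality limit of 100, which few heterozygous calls passed, the 2 breakpoints of 2-69 were left, the first within 1420 kb.

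The direction of the change was not spread evenly either. C to T made up 104 of the 125 calls of 2-69 (83.2%, 75.7 to 88.7) and 83 of the 121 calls of 3-72 (68.6%, 59.9 to 76.2). It made up 48 of the 97 calls of 2-20 (49.5%, 39.7 to 59.3) and 29 of the 83 calls of 3-75 (34.9%, 25.6 to 45.7). The C share of all C and G on these stretches was 50.1%. The background share of C to T among all line-specific calls of the class was 56.5% in 2-69, 44.1% in 2-20, 53.8% in 3-72 and 39.5% in 3-75. In total, 2-69 and 3-72 thus carried more C to T than G to A on these arms, and 3-75 carried more G to A. On the long arms of chromosomes 2 and 4, C to T made up 49 of 68 and 54 of 54 calls in 2-69. In 3-72 it made up 63 of 73 and 19 of 38, and in 3-75 22 of 44 and 2 of 33. The excess of 3-72 thus came from chromosome 2 and that of 3-75 from chromosome 4. In 2-20 opposite excesses on the long arms, 5 of 44 C to T on chromosome 2 and 38 of 47 on chromosome 4, made an even total.

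Blocks that were homozygous mostly held 1 change only. Of the 10 homozygous blocks, 7 held a single change, and all 7 heterozygous blocks held both. Among neighbouring calls that were both homozygous, 220 of 227 pairs had the same change (96.9%, 93.8 to 98.5). Among neighbours that were both heterozygous, 117 of 165 did (70.9%, 63.6 to 77.3). Pairs made of 1 call of chromosome 2 and 1 of chromosome 4 in the same line had the same change in 50.6%. This share was 70.0% in 2-69, which gave 103 of the 227 homozygous pairs, 48.4% in 3-75, 44.7% in 3-72 and 28.9% in 2-20. The homozygous neighbours matched in 98.1% of pairs for 2-69, 65 of 70 for 3-75, 52 of 52 for 3-72 and 2 of 2 for 2-20. By line, the heterozygous neighbours matched in 71 of 89 pairs for 2-20, 38 of 60 for 3-72, 8 of 13 for 2-69 and 0 of 3 for 3-75. Without 2-20 the heterozygous share over the lines was 60.5%. The split was not particular to these chromosomes: on the arms of chromosomes 1, 3 and 5, 524 of 532 homozygous and 507 of 687 heterozygous neighbour pairs had the same change.

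**Figure D2:**
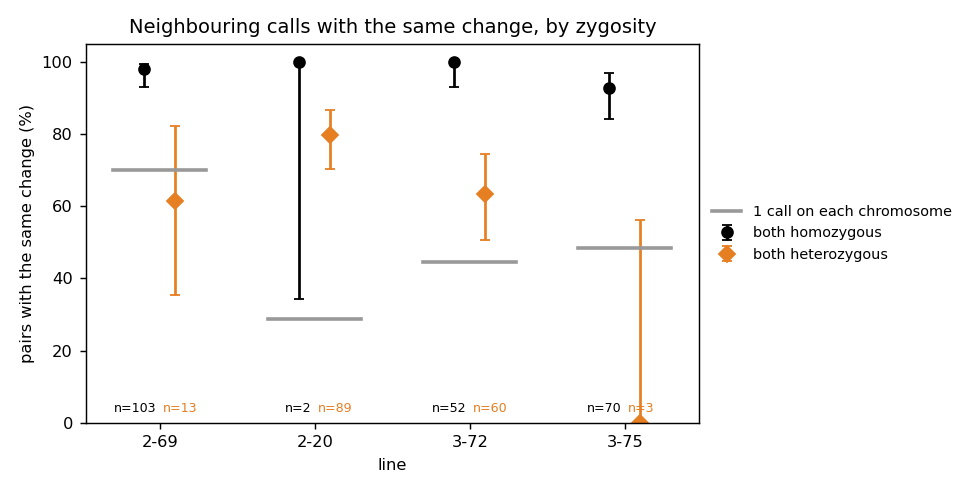
Share of neighbouring calls with the same change in percent, for the 4 lines, with Wilson 95% intervals and the number of pairs. Black circles are pairs of homozygous calls, orange diamonds pairs of heterozygous calls, and grey lines pairs of 1 call on each of the 2 chromosomes. In 3-72, 52 of 52 homozygous pairs matched against 38 of 60 heterozygous pairs, while 2-20 has only 2 homozygous pairs.

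Over the 4 lines, the share of matching neighbours was 141 of 157 pairs within 0.1 Mb, 175 of 201 pairs from 0.1 to 0.5 Mb apart, and 36 of 52 pairs farther apart. The lines differed in this. In 3-75 the matching share was 24 of 24 pairs in the nearest class, 34 of 38 in the middle class and 13 of 17 in the farthest. In 2-20 it was 26 of 31, 42 of 48 and 7 of 14 in the same order, so it was lower only beyond 0.5 Mb. The interval of those 14 pairs was 26.8 to 73.2%. In 3-72 it was 42 of 51, 42 of 53 and 8 of 13. In 2-69 it was 49 of 51, 57 of 62 and 8 of 8.

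A change of direction without a change of zygosity was found in the homozygous block of 3-75 on chromosome 2. Its first stretch, from 6672264 to 12560557, held 22 C to T calls and 1 G to A call, and its second, from 13272288 to 18674325, held 21 G to A calls and no other. The switch lay within 712 kb, and the last C to T call before it was the P404S change of AT2G29210, at which 67 reads were listed where the median of the line was 17. In the homozygous blocks, 3 calls had the opposite change to both of their neighbours. These were G15341279A in 2-69, with 33 alternative reads, and, in 3-75, G9800191A with 12 alternative reads and 1 reference read, and C17995405T with 46 alternative reads.

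The adjoining pericentromeres, which are not among the 426 calls, show where the change of direction lay relative to the start of the long arms. On chromosome 2 of 2-69 the pericentromere had 36 G to A calls of 37, the same change as the 9 homozygous calls that open the arm. The runs of change switched there only within the arm, between 10687787 and 10917403. On chromosome 4 of 3-72 it had 23 G to A calls of 25, and the short-arm tip had 7 of 7. The switch lay inside it, between the G to A call at 6516097 and the C to T call at 6575642, so the calls next to the arm were C to T like the homozygous calls that open it. On chromosome 4 of 3-75 the pericentromere had 25 C to T calls of 28, and its last calls, at 5776158 and 6950791, were G to A like the 5 calls that open the arm. Zygosity was homozygous at 24 of 25 and 25 of 28 of these pericentromeric calls. In 2-20 none of the 29 and 36 pericentromeric calls of chromosomes 2 and 4 was homozygous, as along most of its arms.

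The arms of chromosomes 1, 3 and 5 in the same libraries served as the comparison for both shares. The homozygous share was higher on chromosomes 2 and 4 by 47.6 percentage points in 2-69, by 22.3 in 3-75 and by 0.397 in 3-72, while in 2-20 it was 4.12% against 28.0%. The mean difference was 11.6 ± 30.5 points (SD, n = 4; p = 0.625, exact two-sided sign-flip permutation test, BH-adjusted p = 0.625). Set against the rest of each library, the mean difference was 8.77 ± 26.5 points (n = 4, exact permutation p = 0.625). The C to T share was higher on chromosomes 2 and 4 in 4 of 4 lines, by 32.5 points in 2-69, 10.6 in 2-20, 22.2 in 3-72 and 5.13 in 3-75. The mean was 17.6 ± 12.2 points (SD, n = 4; exact permutation p = 0.125, adjusted p = 0.5 over the 4 tests). Set against the rest of each library, it was 12.7 ± 15.7 points, higher in 3 of 4 lines (exact permutation p = 0.25, adjusted p = 0.5). With 4 lines this test cannot give a p below 0.125, so none of these differences could pass 0.05.

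**Figure D3:**
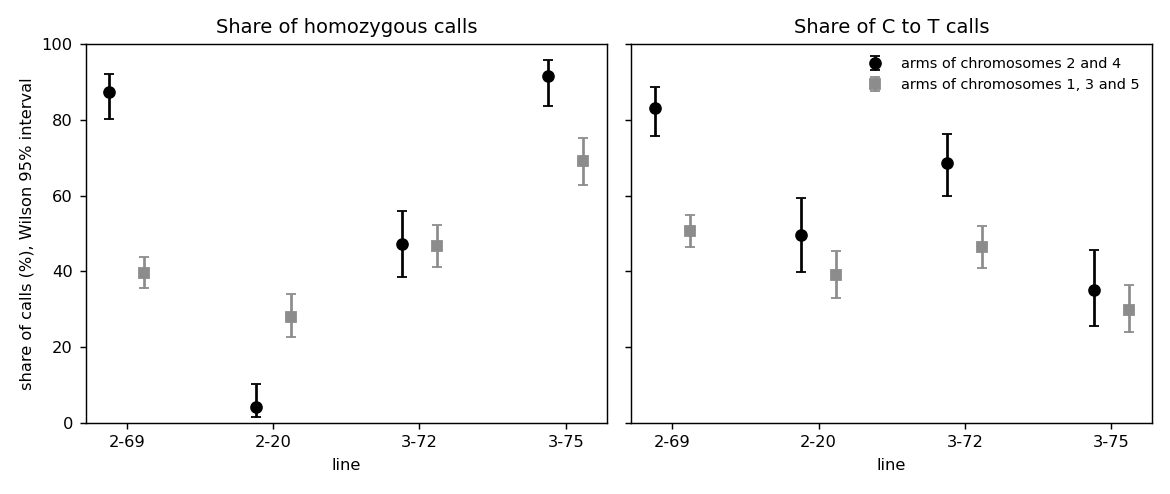
Share of homozygous calls (left) and of C to T calls (right) in percent for the 4 lines, with Wilson 95% intervals. Black circles are the arms of chromosomes 2 and 4, and grey squares are the arms of chromosomes 1, 3 and 5 of the same library. The homozygous share differs in direction between lines, and the C to T share is higher on chromosomes 2 and 4 in 4 of 4 lines.

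The bases around the altered C, read on the strand that carries it, differed from those of all C on these stretches. The altered C lay in CG in 19.7% of calls (16.2 to 23.8) against 13.0% of all C, in CHG in 17.4% (14.1 to 21.3) against 14.4%, and in CHH in 62.9% (58.2 to 67.4) against 72.6%, where H is any base but G. These are the contexts in which plants methylate cytosine, and methylation itself was not read here. The base after the C was A in 81 of 426 calls (15.6 to 23.0%) against 35.5% of all C. By line this share was 20.0% in 2-69, 29.9% in 2-20, 11.6% in 3-72 and 15.7% in 3-75. Each was below that of all C, but the interval of 2-20 (21.7 to 39.6) included 35.5%. The base before it was A in 19.2% against 29.2%. Methylation contexts varied between lines, from 14.4% CG in 2-20 to 26.4% in 3-72. The CG intervals of 2-20 (8.80 to 22.8) and 3-75 (10.3 to 26.3) included the 13.0% of all C. Within protein-coding genes, the change was C to T on the coding strand in 140 of 317 calls (44.2%, 38.8 to 49.7). By line the share was 45.1% in 2-69, 35.1% in 2-20 (25.2 to 46.5), 47.8% in 3-72 and 48.3% in 3-75. Only the interval of 2-20 lay below 50%. The C share of the coding strands themselves is not given here, so no strand bias is read from these values.

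Coding effects were read by translating each change on the longest coding sequence of its gene. Of the 426 calls, 144 were missense, 52 synonymous, 6 gained a stop codon and 2 changed a splice site. A further 68 lay in introns, 45 in UTRs, 6 in non-coding genes, 20 in pseudogenes and 83 between genes. Line 2-69 had 37 protein-altering calls (29.6%, 22.3 to 38.1) and 2-20 had 38 (39.2%, 30.1 to 49.1). Line 3-72 had 42 (34.7%, 26.8 to 43.5) and 3-75 had 35 (42.2%, 32.1 to 52.9). The background share among all line-specific calls of the class was 25.6%, 27.1%, 29.3% and 31.0% in the same order. That background includes the gene-poor pericentromeres.

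Homozygous and heterozygous calls altered proteins at shares whose intervals overlap. Of the 246 homozygous calls 82 were protein-altering (33.3%, 27.7 to 39.4), and of the 180 heterozygous calls 70 were (38.9%, 32.1 to 46.2). Every C and G of these stretches was also changed in turn on the reference. Among the possible coding changes 64.5% were missense, 30.4% synonymous and 4.97% stop-gained. Among the 202 coding calls these shares were 71.3% (64.7 to 77.1), 25.7% and 2.97% (1.37 to 6.33). The interval of the synonymous share among these 202 calls included the possible share of 30.4%. Coding positions made up 40.6% of all C and G and 47.4% of the calls (42.7 to 52.2). The synonymous share of coding calls was 31.5% in 2-69, 25.5% in 2-20 and 28.8% in 3-72, each with an interval that included the possible share. In 3-75 it was 5 of 38 (13.2%, 5.75 to 27.3), and the upper bound of that interval lay below the possible share.

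**Figure D4:**
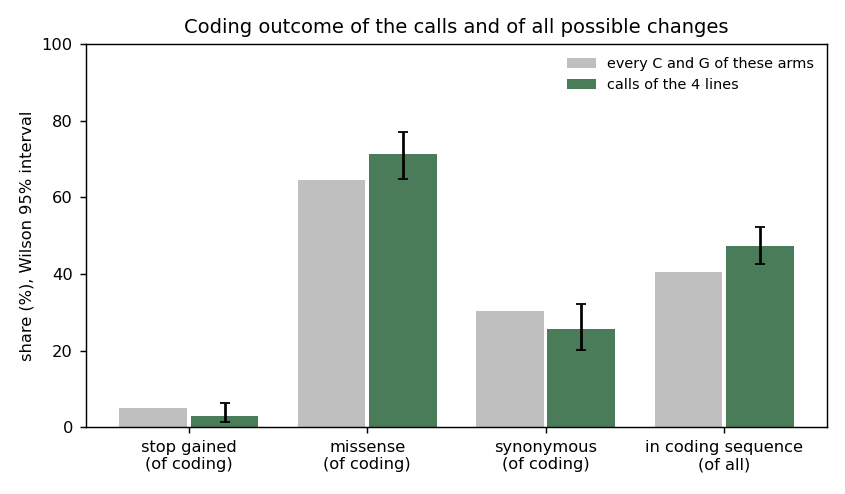
Shares in percent of stop-gained, missense and synonymous outcomes among coding changes, and of coding positions among all. Grey bars are every possible change of the class at the C and G of these arms, green bars are the calls of the 4 lines with Wilson 95% intervals. Missense calls are 71.3% against 64.5% of possible changes, with an interval that reaches down to 64.7%.

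The most frequent residue changes were A to T and D to N, with 16 calls each of 144, followed by P to S with 13, A to V with 11, and E to K and P to L with 10 each. Alanine, proline and glycine were the residue changed in 27, 23 and 23 of the missense calls.

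Stop-gained and splice-site calls fell on genes of several kinds. Of the 8, 5 were homozygous, beside 246 of all 426 calls (57.7%). The 5 lay in 2-69 and 3-75, where 87.2% and 91.6% of all calls were homozygous. In 2-69, W251* in AT2G27650, annotated as related to ubiquitin hydrolases, was homozygous with 33 alternative reads and truncates a product of 1106 residues. In the same line the heterozygous calls R90* in WRKY15, a WRKY transcription factor of 317 residues, and R63* in AT2G23530, a zinc-finger protein of 552 residues, had 16 alternative reads each, beside 15 and 9 reference reads. In 2-20 the single stop-gained call was the heterozygous Q79* in AT2G23390, with 12 alternative and 14 reference reads. Line 3-72 had no stop-gained or splice-site call.

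The other 4 were homozygous in 3-75. Q26* lay near the start of BSK1, a kinase of brassinosteroid signalling of 512 residues, with 17 alternative reads and no reference read. R761* in AT2G18220, a Noc2p-family protein (in yeast, Noc2p acts in ribosome assembly), lay 3 residues from the end of a product of 764. G17418040A changed the donor of intron 6 of NAPRT1, an enzyme of NAD salvage, with 15 alternative reads. G18186744A changed the acceptor of the first intron of EDS5, a transporter needed for salicylic acid to accumulate, with 10 alternative reads.

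Homozygous missense calls in genes with a symbol, taken by the lowest substitution score, included enzymes and regulators in 3 lines. In 2-69 these were P147L in THY-1, a thymidylate synthase, P60L in ADK, annotated as an adenosine kinase, P117L in PEP, a KH-domain RNA-binding protein, P54L in MUS81, and R28C in STY46, a protein kinase. They had 24, 32, 36, 18 and 22 alternative reads in that order, with 1 reference read at ADK and none at the rest. In 3-72 they were G266R in PERK4, a receptor-like kinase, P380L in GPRI1, a transcription factor of chloroplast development, P360S in ABCG3, a membrane transporter, P167S in EXT12, an extensin of the cell wall, and P128S in IQD19, a calmodulin-binding protein. The last of these, with 10 alternative reads and 1 reference read, is also the call that closes the homozygous block on chromosome 4. With a quality limit of 30 that block ended before it, at 8171401.

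In 3-75 they were G578R in SETH5, G152D in FZR2, an activator of the anaphase-promoting complex, and S261F in BGLU9, a beta-glucosidase. The others were P77S in NRPB1, the largest subunit of RNA polymerase II, and R138C in GGR, annotated as a geranylgeranyl reductase. NRPB1 and GGR had 39 and 46 alternative reads and no reference read. The GGR call is C17995405T, named above for having the opposite change to both of its neighbours. Its depth was 51, where the median of the line was 17. BGLU9 held another homozygous call, T264I, 9 bases away, and these were the closest pair of calls in a line. Line 2-20 had no homozygous missense call in a gene with a symbol, and its 1 homozygous missense call was A168T in AT4G40020.

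AT2G29210, GRL and PAL1 were altered in more than 1 line, at different positions. AT2G29210 was altered in 3 lines. R179H in 2-20 was heterozygous with 9 alternative and 5 reference reads, R204C in 3-72 was homozygous with 13 alternative reads, and P404S in 3-75 was homozygous with 63. The printed window of P404S holds a run of 14 bases at 2 places, 30 bases apart, and the longest repeated run in the other windows of this gene is 6 bases. GRL, a component of the complex that activates actin branching, carried V515M in 2-69, homozygous with 27 alternative reads, and D979N in 3-72, heterozygous with 10 of 18. PAL1, which makes cinnamate from phenylalanine at the entry to lignin and flavonoid synthesis, carried D574N in 2-69, homozygous with 38 alternative reads, and P709L in 3-72, heterozygous with 9 alternative and 12 reference reads. Every other altered gene was altered in 1 line only, and 147 genes were altered in all.

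Genes of small RNA, chromatin and chromosome function were looked up by list. Of the 7065 protein-coding genes wholly on these stretches, 147 (2.08%) had a protein-altering call in some line. Of the 7 RNA silencing genes there, 1 did, NRPE1 (NRPD1B in the annotation), the largest subunit of RNA polymerase V, with the heterozygous S848F in 3-72, 11 alternative and 9 reference reads. None of the 12 genes of DNA methylation and chromatin had one, and none of the 10 genes of centromere, kinetochore and cohesin. The cohesin subunit SCC3 had 1 synonymous homozygous call in 2-69. Of the 9 genes of meiosis and DNA repair, MUS81, an endonuclease that cuts recombination intermediates, had 1, the homozygous P54L in 2-69. These counts rest on 0 or 1 gene per list and give no rate for a list.

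Calls of different lines were never at the same base by definition of the class, but some lay close. The nearest pair of 2 lines, in 3-72 and 3-75 on chromosome 2, was 22 bases apart, at 8591234 and 8591256. Read depth stood far above the rest of the line at 3 calls, at more than 3 times its median. G1708A in 2-69, in an intron of AT2G01008 at the end of the short arm of chromosome 2, had a depth of 1366 against a median of 29, with 35.9% alternative reads. C62045T in 3-75 had 71 reads, and the third is P404S. Whether copies of these sequences elsewhere add reads was not tested.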

How the data were processed

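Per the labels, DNA of each line was sequenced on a HiSeq2000 as paired reads of 101 nt. The authors deposited 1 list of variant calls per library. Per the file headers it is in VCF 4.1 from samtools 0.1.19-44428cd. Bowtie, SAMtools, Bismark and the build TAIR10 stand in the submitters' processing notes, with no version or role. The quality score, the depth counts and the other per-call fields are the authors' deposited values. The lists hold called sites only, and a base that is not listed may equal the reference or lack reads.

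A call was shared where chromosome, position and bases matched in another list. The reference base of each call matched the TAIR10 assembly used for genes and sequences. Zygosity is the caller's genotype, and the outer 2 bases at each intron end count as a splice site. The blocks, the shares and the 4 gene lists of 127 genes were defined with earlier results of these data known, as were the calls chosen. Named are all stop-gained and splice-site calls, all altered list genes, all genes altered in 2 or more lines, and per line up to 5 homozygous missense calls in genes with a symbol, by lowest BLOSUM62 score, then most alternative reads. T264I, A168T, SCC3 and single calls given by position were named after their values were seen.

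Alternatives changed the limits of quality (30, 100) and depth (5, 20), the excluded distance from the centromere (2, 5 Mb), the shortest run (2, 5), the comparison (by position), the zygosity (80% alternative reads) and close calls (3 within 100 bp left out). On simulated arms, the blocks of 500 of 500 were recovered where exceptions lay farther from a switch. They were recovered in 0 of 500 with an exception 1 or 2 calls before it, where the edge moved by at most 3 calls. Effects matched an independent translation in 453 of 453 random changes. Python 3.11.15, numpy 2.4.6, scipy 1.17.1, Biopython 1.88 and matplotlib 3.10.9 were used.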

Additional observations from a re-analysis of the deposited data

Results flagged for a closer look

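Line-specific changes other than a plain C to T or G to A, on the same arms and with the same quality and depth, were outside the comparisons above. The library labelled rdr1 rdr2 rdr6 had 2 of them. Line 2-69 had 5 and 2-20 had 3, above that library, while 3-72 had 2, the same number, and 3-75 had 1, below it. Of the 5 in 2-69, 3 were homozygous, and each of those listed a second alternative base. The 3 in 2-20 were homozygous, and A17995589C,G and C19698032T,A among them also listed a second alternative base. So did the homozygous A14361934G,C in 3-72. C19698032T,A had a depth of 489, where the median over the 2-20 calls described above was 21. T was the first alternative base at C19698032T,A and, in 2-69, at C16487981T,G and C14593533T,G. The counts are of single libraries, and the difference was not tested.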

How the results depend on the processing

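Of 202 recomputed values, 163 stayed within 1 interval or within 1.5 times of the value given above and 39 moved. The limits of depth 5 or more, sharing by position, zygosity from read shares, close calls left out and runs of 2 calls moved none. With quality of 100 or more, which removes most heterozygous calls, 2-20 kept 7 calls (3 protein-altering, 28.6% homozygous, 100% matching neighbours, 1 block) and 3-72 kept 49 (16 protein-altering, 100% homozygous, 87.8% C to T, 100% matching neighbours, 3 blocks). The homozygous share became 97.3% in 2-69 and 100% in 3-75, which had 2 blocks. In 2-69, C to T became 90.1% and matching neighbours 97.2%. The few heterozygous neighbours left matched in 100%. With depth of 20 or more, 64 calls were left in 2-20 (1.56% homozygous, 2 blocks), 25 in 3-72 (24% homozygous, 56% C to T, 50% matching neighbours, 13 protein-altering) and 31 in 3-75 (17 protein-altering, 2 blocks), and 18 of the 31 named calls. With quality of 30 or more, 3-72 was 35.2% homozygous with 65.2% matching neighbours. An excluded distance of 2 Mb from the centromere gave 73.9% C to T in 2-69. A distance of 5 Mb gave 92.5% in 2-69 and 18.6% in 3-75, and 30.7% homozygous calls in 3-72. Runs of at least 5 calls left 2 blocks each in 2-20 and 3-75. Leaving out each line in turn, an alternative chosen after seeing the data like the others on pairs split by zygosity, gave 96.0% to 98.7% matching homozygous neighbours, the highest without 3-75, and 60.5% to 75.2% matching heterozygous neighbours, the lowest without 2-20. Depth was lowest in 3-72, whose values moved most often. No paired analysis was possible because the labels give these 5 libraries no shared replicate numbers. The tests over the 4 lines set chromosome regions of the same library against each other. Fewer calls pass a higher limit by construction, and no further cause was tested.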
